A study of Bos taurus with 36 samples.

Results

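The levels of 10 interferon-stimulated genes were followed in the blood of 10 pregnant heifers and in organs of the 10 male fetuses they carried. The members are ISG15, USP18, IFIH1, MX1, MX2, OAS2, RSAD2, IFI6, IFI44 and IFIT2. They were chosen by symbol, as the 10 rows of the gene count table whose Entrez identifier carries that symbol in the bovine RefSeq annotation, out of 35092 rows in all. All 10 had enough reads to be tested in blood.

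Interferons are cytokines that cells release on sensing foreign nucleic acid, and they act through cell surface receptors to switch on a shared set of antiviral genes. In ruminants the conceptus itself secretes a type I interferon, interferon tau, around the time the mother recognizes the pregnancy. Interferon-stimulated genes in circulating leukocytes are known to rise at that stage, and they are often read as a sign of a conceptus.

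The heifers were sampled on Day 42 of gestation, before slaughter. In the ET_D7 group a Day 7 embryo had been placed in a Day 7 uterus (synchronous transfer). In the ET_D9 group an embryo of the same age had been placed in a Day 9 uterus (asynchronous transfer), on the same calendar day. There were 5 heifers in each group, and the groups differed in that uterine stage only, as far as the labels say. Each library came from 1 animal, and the fetuses had been picked for unlike weights.

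Heifers are numbered here by the weight of their fetus, from 1 (lightest) to 10 (heaviest). Heifers 1 to 5 were ET_D7, with fetuses of 1.253 to 1.37 g. Heifers 6 to 10 were ET_D9, with fetuses of 1.396 to 1.69 g. Every ET_D9 fetus was heavier than every ET_D7 fetus, so transfer group and fetal weight cannot be told apart across the whole set of 10.

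The blood libraries held 26602415 to 40812354 counted reads. They fell into a deeper class (heifers 2, 3, 6, 9 and 10) and a shallower class (heifers 1, 4, 5, 7 and 8). The 9 heart, 9 gonad and 8 liver libraries held 18231089 to 39649051. Each leukocyte marker list was detected in every blood library, although FCGR1A, a monocyte receptor, was at 0 counts in all 10 and CAMP, a neutrophil granule peptide, in 9 of them. Markers of heart muscle, chiefly MYH7, summed to 3379 CPM in heifer 2 and 1111 CPM in heifer 5 and to at most 17.5 CPM in the other 8. In heifers 2 and 5 MYH6 was at 20.4 and 12.3 CPM, and every remaining gene of that list was at most 2.23 CPM. The part of these markers in the results was not tested. Levels are given as CPM (the reads of a gene relative to the total of its library), scaled by the trimmed mean of M values. Levels are compared within a gene only, since CPM is not corrected for transcript length.

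In maternal blood the same heifers stood highest for nearly all members. Heifer 10, with the heaviest fetus, had the highest level of 10 of the 10 genes, and heifer 9 was next for 9 of them. MX1 was the exception, with heifer 3 next and heifer 9 after it. The share of all genes that were highest in heifer 10 is not given here. In bulk blood, fewer cells of a type and less RNA per cell cannot be told apart.

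ISG15 encodes a ubiquitin-like protein that is joined to target proteins after interferon exposure. Its level (Entrez 281871) was 5.70, 5.90, 20.4, 15.6 and 11.6 CPM in heifers 1 to 5 and 10.5, 10.7, 6.51, 40.2 and 104 CPM in heifers 6 to 10. Heifers 9 and 10 stood above all 8 others, and heifers 6 to 8 lay inside the ET_D7 range. USP18, the protease that removes ISG15 from its targets and dampens receptor signalling (Entrez 515202), was at 19.0, 22.7, 25.7, 23.2 and 23.0 CPM in ET_D7 and 21.7, 19.6, 13.6, 29.4 and 57.2 CPM in ET_D9. Its range was narrower than that of ISG15. The highest level was 2.50 times the median of the 10 heifers for USP18 and 9.33 times the median for ISG15.

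IFIH1, also called MDA5, is a cytoplasmic sensor of long double-stranded RNA. Its level (Entrez 535490) was 91.7, 89.3, 140.4, 111 and 152 CPM in heifers 1 to 5 and 134, 127, 111, 165 and 268 CPM in heifers 6 to 10. It had the smallest spread of the members, the highest library being 2.05 times the median.

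MX1 and MX2 are dynamin-like GTPases that block virus replication. MX1 (Entrez 280872) was at 360.4, 334, 570.4, 367 and 349 CPM in ET_D7 and 316, 420.3, 237, 540.1 and 758 CPM in ET_D9. MX2 (Entrez 280873) was at 101, 104, 252, 133 and 113 CPM in ET_D7 and 99.7, 71.5, 115, 337 and 1355 CPM in ET_D9. The genes of this pair differed in spread. The highest library was 3.20 times the lowest for MX1 and 18.9 times the lowest for MX2.

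OAS2 makes the short adenylate chains that activate RNase L. It (Entrez 529660) had the widest spread of the members, 43.7 times from lowest to highest, with 13.1, 25.0, 45.6, 29.9 and 28.8 CPM in heifers 1 to 5 and 26.7, 17.2, 8.92, 105 and 389.9 CPM in heifers 6 to 10. RSAD2, or viperin, makes a chain-terminating nucleotide. Its level (Entrez 506415) was 12.7, 13.2, 25.7, 28.1 and 22.0 CPM in ET_D7 and 14.7, 18.3, 20.1, 62.4 and 194 CPM in ET_D9. For both genes heifer 10 was the highest and heifer 9 the next. Heifers 6 to 8 lay inside the ET_D7 range except for OAS2 in heifer 8, the lowest of the 10.

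IFI6 encodes a small membrane protein of the endoplasmic reticulum and mitochondria, and IFI44 a cytoplasmic protein. IFI6 (Entrez 512913) was at 58.9, 51.5, 91.7, 36.5 and 81.0 CPM in ET_D7 and 56.8, 53.7, 38.6, 137 and 401 CPM in ET_D9. IFI44 (Entrez 508348) was at 18.4, 28.4, 36.2, 34.5 and 26.2 CPM in ET_D7 and 19.3, 23.0, 19.2, 50.8 and 96.5 CPM in ET_D9. IFIT2, which binds foreign RNA and restrains its translation (Entrez 527528), was at 250.4, 199, 486, 267 and 348 CPM in ET_D7 and 331, 170.3, 298, 550.5 and 1283 CPM in ET_D9. The same pair of heifers led for these 3 genes.

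Heifer 3 of ET_D7 held the next place for many members. It ranked next after heifers 10 and 9 for 7 of the 10 genes. Heifer 4 took that place for RSAD2 and heifer 5 for IFIH1. On the mean of the 10 standardized log2 levels, heifer 10 was at 2.24, heifer 9 at 0.87 and heifer 3 at 0.37 standard deviations above the average. The lowest mean, −0.86, was that of heifer 8, also ET_D9.

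**Figure D1:**
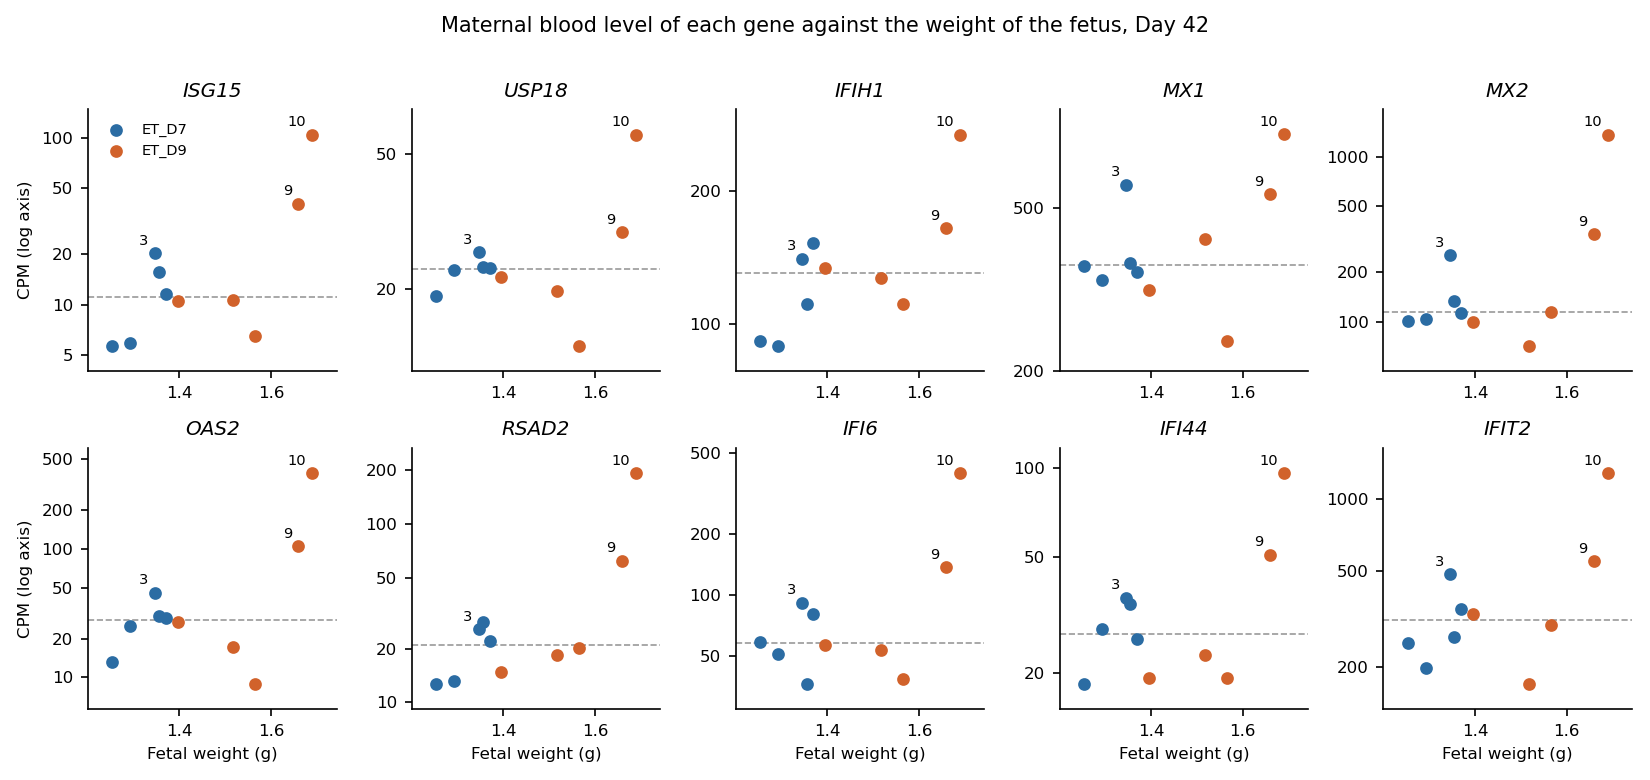
Level of each of the 10 genes in maternal blood (CPM, log axis) against the weight of the fetus carried (g), 1 point a heifer, ET_D7 in blue and ET_D9 in orange, with heifers 3, 9 and 10 numbered and a dashed line at the median of the 10 heifers. Heifer 10 is the highest point in all 10 panels, and heifer 9 is the next in all panels but that of MX1.

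The transfer groups were compared in blood to ask whether the uterine stage at transfer went with a different maternal level. No member passed the test. The ET_D9 mean was higher for each of the 10, from 1.94 log2 units for OAS2 (SE 1.02, adjusted p = 0.730) to 0.20 for MX1 (SE 0.297, adjusted p = 0.905), by edgeR's quasi-likelihood test with Benjamini-Hochberg adjustment. The median over all genes was 0.010. None of the 16284 genes tested passed by that test, which is 0% of them, and 1183 (7.26%) had an unadjusted p under 0.05, with no member among them. DESeq2 called 65 genes and no member.

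The spread within ET_D9 was wide. ISG15 averaged 11.9 ± 6.34 CPM in ET_D7 and 34.4 ± 41.2 CPM in ET_D9 (SD, n = 5 each). OAS2 averaged 28.5 ± 11.7 and 110 ± 161 CPM, and MX2 averaged 141 ± 63.7 and 396 ± 547 CPM. In each of these the SD of ET_D9 was larger than its mean. For MX1 the groups averaged 396 ± 98.2 and 454 ± 205 CPM. The ranges of the groups overlapped for all 10 genes.

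Heifer 10 carried much of the difference between group means. Without it, MX1 was −0.08, IFI44 was −0.04 and USP18 was −0.12 log2 units in ET_D9 relative to ET_D7, and the other 7 genes lay between 0.11 (IFIT2) and 0.51 (ISG15). The deeper class of libraries gave 0.21 (MX1) to 1.68 (ISG15), all higher in ET_D9. The shallower class gave −0.85 (OAS2) to 0.04 (IFIH1), and 9 of the 10 were lower in ET_D9. Heifers 9 and 10 are both in the deeper class.

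Fetal weight was examined next, with a smooth curve and with a straight line. The curve was a natural cubic spline in fetal weight (3 degrees of freedom), and its test asks whether the level moved with weight in any shape. It was passed by 4 members: RSAD2 (adjusted p = 0.0134), OAS2 (0.0318), ISG15 (0.0358) and IFI44 (0.0420), by edgeR's quasi-likelihood test with Benjamini-Hochberg adjustment. Of all genes tested 23 passed, or 0.141%. MX2 (adjusted p = 0.0585), USP18 (0.0836), IFIH1 (0.0885), IFIT2 (0.113), IFI6 (0.192) and MX1 (0.516) did not pass in the same fit. All 10 had an unadjusted p under 0.05, against 9.66% of all genes.

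These calls rested on few libraries. Without heifers 9 and 10 no gene passed, and the adjusted p of the 4 members was 0.508 to 0.861 in the same test. With depth class as a covariate no gene passed either, and RSAD2 had the smallest adjusted p of the members that had passed, 0.143. Leaving out 1 heifer at a time left 0 members called without heifer 5 or heifer 10, 1 without heifer 1, 2, 4 or 6, 3 without heifer 9, 5 without heifer 3 or 7, and 6 without heifer 8. DESeq2 called 487 genes and 9 members, all but MX1.

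The 23 genes that passed the curve held 4 members and 9 genes of the pathway lists. ZNFX1 (adjusted p = 0.0119) and DHX58 (0.0263) are helicases of RNA sensing. PARP14 (0.0263) and DTX3L (0.0272) act in ADP-ribosylation and ubiquitination, UBA7 (0.0318) is the activating enzyme for ISG15, and TRIM25 (0.0358) is a ubiquitin ligase that activates RIG-I. IFIT5 (0.0332) binds foreign RNA, OAS1Y (0.0358) is an oligoadenylate synthetase with close copies at its locus, and CMPK2 (0.0419) is a nucleotide kinase. The other 10 were FAM3B, DRAM1, HPGD, HES4, LTA4H and 5 loci with no name. Of the 23, 19 were highest in heifer 10, and in 18 of those heifer 9 was next. The 23 were picked by a curve of weight that ends at heifer 10, so a peak there follows in part from the choice.

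The straight line gave positive slopes for all 10 members and no call. RSAD2 had a slope of 0.70 log2 units per 0.1 g (SE 0.144, adjusted p = 0.360) and OAS2 one of 0.80 (SE 0.218, adjusted p = 0.413), neither of which passed edgeR's quasi-likelihood test with Benjamini-Hochberg adjustment. ISG15 had a slope of 0.70, MX2 of 0.65, IFI6 of 0.49, IFIT2 of 0.38, IFI44 of 0.33, IFIH1 of 0.23, USP18 of 0.20 and MX1 of 0.16. An unadjusted p under 0.05 with a positive slope was reached by 9 of the 10, all but MX1, and by 4.4% of all genes. A single gene, or 0.00614% of those tested, passed after adjustment.

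The sign of the slope turned with the heaviest pair. Without heifers 9 and 10, the slope was negative for 8 members, from −0.40 for OAS2 to −0.05 for ISG15. It was 0.09 for RSAD2 and 0.08 for IFIH1. The adjusted p of the 8 negative slopes was 0.589 (USP18) to 0.974 (ISG15) in edgeR's quasi-likelihood test. No gene was called in that fit, so these slopes did not differ from 0 beyond their spread. Without heifer 10 alone all 10 slopes stayed positive, from 0.012 (USP18) to 0.41 (ISG15). With transfer group as a covariate the slopes were 0.33 (IFIH1) to 1.24 (OAS2), with no call.

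**Figure D2:**
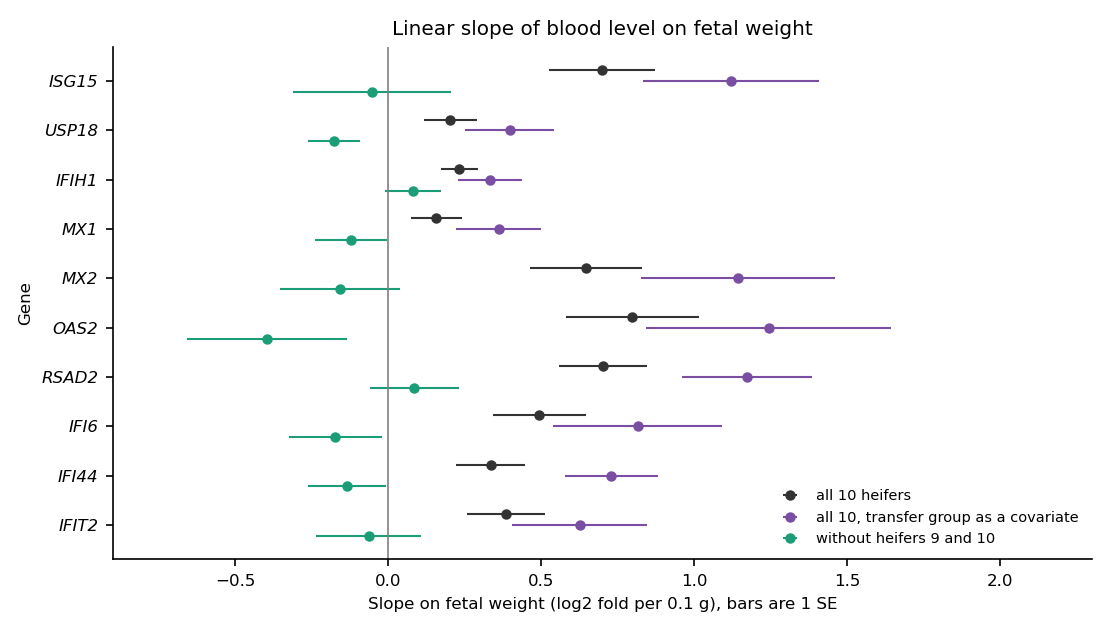
Slope of each gene on fetal weight in maternal blood (log2 units per 0.1 g, ± 1 SE) from all 10 heifers, with transfer group as a covariate, and without heifers 9 and 10. All 10 slopes are above 0 in the first and the second fit, and 8 of 10 are below 0 in the last.

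The other genes of the pathway were taken from 4 lists. Of 38 other interferon-stimulated effectors, 34 matched a row and 31 were tested in blood. In the line on weight, 31 of 31 had a positive slope, with a median of 0.23 log2 units per 0.1 g against 0.0018 over all genes. An unadjusted p under 0.05 with a positive slope was reached by 25 of 31, and by 4.4% of all genes. None of the 31 passed after adjustment. ZBP1, a sensor of Z-form nucleic acid, had a slope of 0.43 (SE 0.0809) and an adjusted p of 0.360 in edgeR's quasi-likelihood test. PARP14 had a slope of 0.20, DTX3L of 0.23 and ZNFX1 of 0.33. ZNFX1 was at 635.5 CPM in heifer 9 and 1178 CPM in heifer 10, and at 301.4 to 420 CPM in the others. Slopes of the list genes without heifers 9 and 10 are not given here. Between transfer groups, 29 of the 31 were higher in ET_D9, with a median of 0.43 log2 units. Only ZBP1 (1.01 log2 units, adjusted p = 0.654 in edgeR's quasi-likelihood test) had an unadjusted p under 0.05. Of all genes, 3.19% had such a p and were higher in ET_D9. IFIT3 was listed at 0 in all 10 blood libraries.

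The sensors and adaptors were mixed in direction. Of 10 tested, 7 had a positive slope, 2 of them with an unadjusted p under 0.05 (4.4% of all genes). In addition, 1 had a negative slope at that level. DHX58 (0.32 log2 units per 0.1 g) and RIGI (0.29), which encode RNA helicases of the same family as IFIH1, had positive slopes. MAVS, the adaptor on which RIG-I and MDA5 signal, had a slope of −0.06, and MYD88, the adaptor of Toll-like receptors, of 0.07. The list median was 0.046.

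Among 16 receptors and signalling genes, 13 had a positive slope, 6 with an unadjusted p under 0.05 (4.4% of all genes). IRF7, the factor that drives interferon genes, had a slope of 0.40 log2 units per 0.1 g, IRF1 of 0.17 and IRF9 of 0.16. IRF7 was at 54.5 CPM in heifer 9 and 100.4 CPM in heifer 10, and at 17.1 to 31.7 CPM in the other 8. Between transfer groups, 5 of the 16 had an unadjusted p under 0.05 and were higher in ET_D9, as did 3.19% of all genes: JAK1 (0.19 log2 units), IRF1 (0.35), STAT2 (0.33), SOCS1 (0.53) and IRF7 (0.91). Their adjusted p was 0.643 to 0.678 by edgeR's quasi-likelihood test.

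The listed type I interferon genes that matched a row had few or no counted reads in the blood libraries. Interferon genes outside that list were not followed. Of 12 type I ligands, 9 matched a row and none had enough reads to be tested. IFNT, IFNB2 and IFNA1 did not match. IFNT2 and IFNT3, which encode interferon tau, were at 0 counts in all 10 blood libraries. How reads that map to several genes were counted was not given, so 0 counts do not show absence. IFNB1 reached at most 0.405 CPM.

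The 10 genes agreed closely over the 10 heifers. Over the 45 pairs of members the median Pearson r of log2 CPM was 0.89, from 0.74 (MX1 and IFIT2) to 0.98 (OAS2 and USP18), and 41 pairs were above 0.8. The median r of a member with all genes tested was 0.009. These values share the same 10 libraries. The median Spearman rho was 0.76, and the median r was 0.86 once each depth class was centred on its own mean.

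Agreement was weaker among the other 8 heifers. Without heifers 9 and 10 the median r was 0.56, and it was 0.72 without heifer 10 alone. Pairs then differed widely. OAS2 with USP18 stayed at 0.95, MX2 with IFIT2 was 0.82 and ISG15 with RSAD2 was 0.81, whereas IFI6 with RSAD2 was 0.035.

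**Figure D3:**
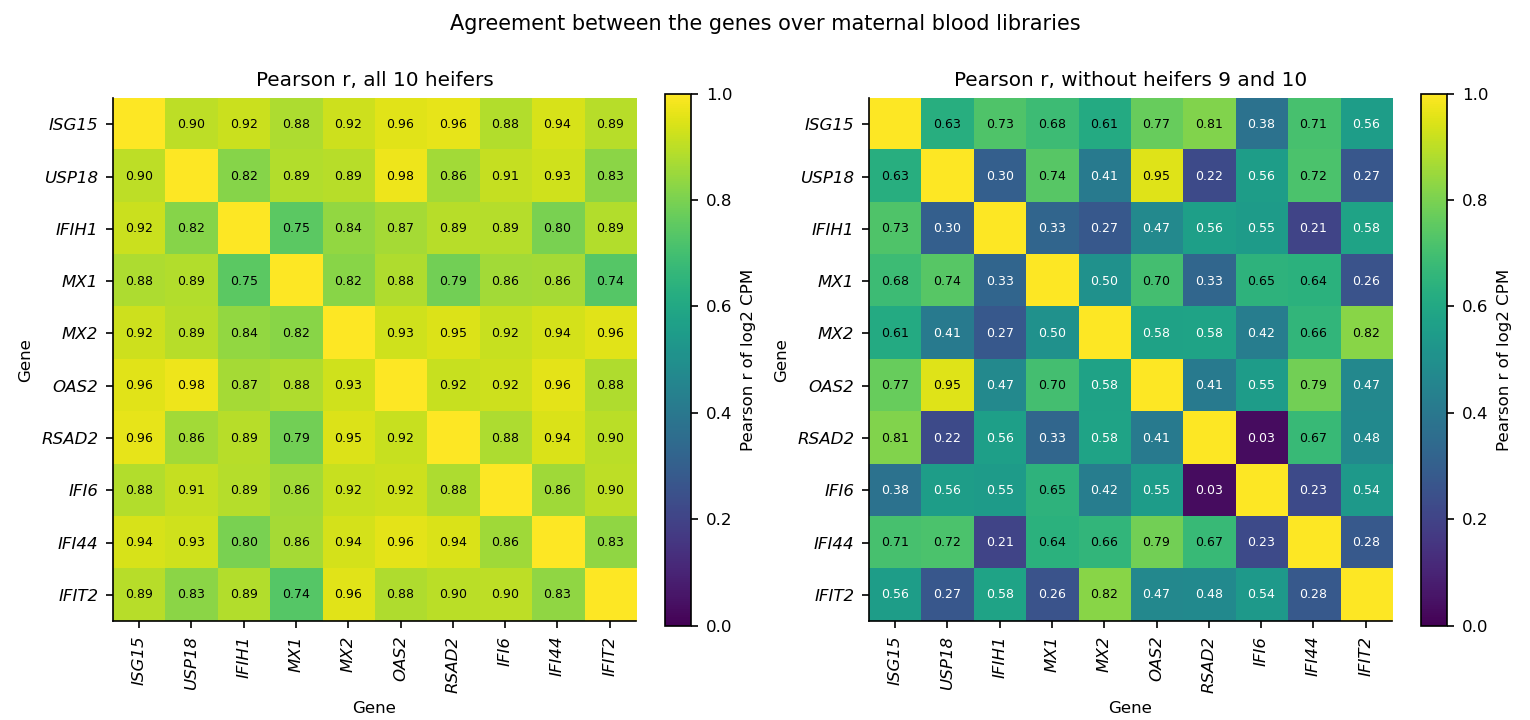
Pearson r of log2 CPM between each pair of the 10 genes in maternal blood, over all 10 heifers and without heifers 9 and 10 (n = 8), with the diagonal set to 1. The median over 45 pairs is 0.89 with all heifers and 0.56 without that pair.

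The non-members most like the 10 genes, by mean r with them over the 10 heifers, were RIGI (0.94), HES4 (0.94), DHX58 (0.92), DTX3L (0.92) and XAF1 (0.92). RIGI was at 119.3 CPM in heifer 9 and 246.1 CPM in heifer 10, and at 58.7 to 111.8 CPM in the others. HES4, a transcriptional repressor of the Hes family, is in none of the lists. It was at 17.9 CPM in heifer 9 and 48.2 CPM in heifer 10, and at 7.98 to 13.8 CPM in the others. Of the 30 most alike genes, 17 were listed pathway genes. A mean r above 0.8 was found for 0.436% of 16274 genes, for 22 of 31 effectors, for 2 of 10 sensors and for 3 of 16 signalling genes.

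**Figure D4:**
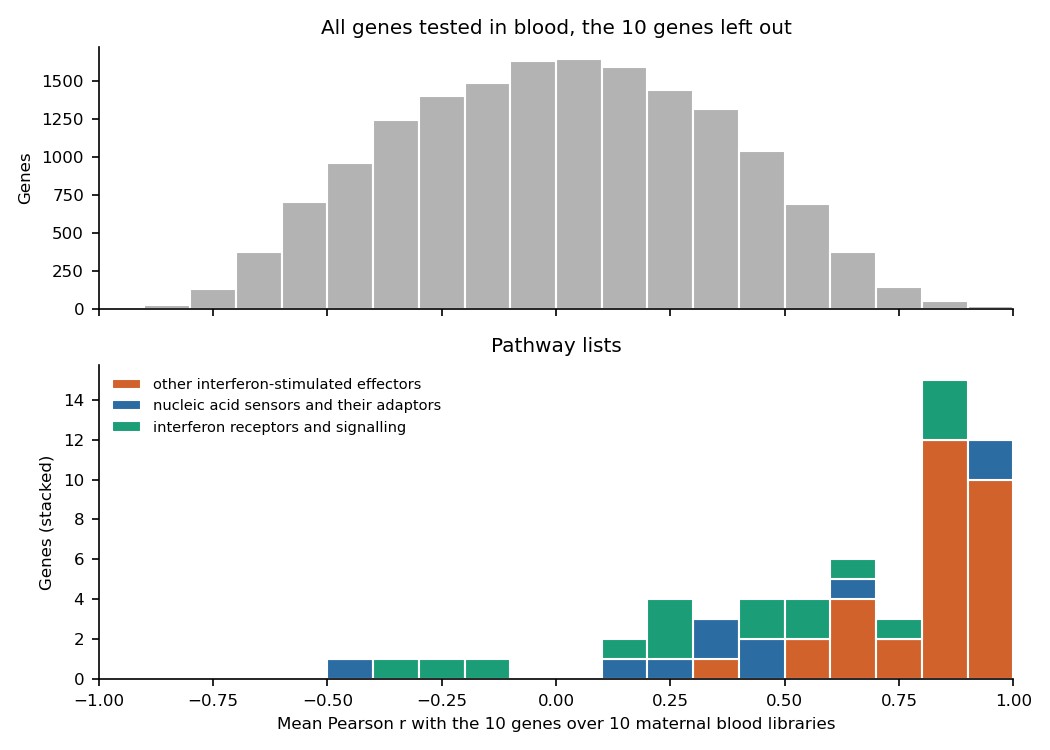
Number of genes by mean Pearson r of log2 CPM with the 10 members over the 10 blood libraries, for all genes tested apart from the members and for the pathway lists. The effectors lie toward the right, with a list median of 0.86, while the sensors and signalling genes have medians of 0.42 and 0.45.

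Position in the genome was read as gene order in RefSeq on ARS-UCD2.0, which is not the build that was counted, so no coordinates are given. Of 18 tested places directly beside a member, 7 held a gene with r above 0.8 to it. Over 10818 adjacent tested pairs the median r was 0.116, and 2.37% exceeded 0.8. Of these 7 places, 5 held genes of the pathway itself: CMPK2 beside RSAD2 (0.97), IFI44L beside IFI44 (0.90), OAS1Y beside OAS2 (0.89), and MX1 and MX2 beside each other (0.82). The annotated spans of OAS2 and OAS1Y overlap, so reads may be shared between them.

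The other places held genes outside the lists. HES4 lies beside ISG15 and had an r of 0.95 with it. FAM3B, a secreted cytokine-like protein, lies beside MX2 and had an r of 0.90, with 10.4 CPM in heifer 9, 31.4 CPM in heifer 10 and 3.88 to 10.9 CPM in the others. AGRN, on the other side of ISG15, was at 11.9 CPM in heifer 10 and 1.05 to 4.15 CPM in the others, with an r of 0.76. Transcripts that run from one gene into the next were not tested.

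Blood composition was read from summed marker levels of each cell type. Heifers 9 and 10 had the highest summed T cell markers, 1173 and 1196 CPM against 862 to 1148 CPM in the others. The genes of that list were not alike. CD3D, LCK and CD5 were highest in this pair and CD4 in heifer 9. CD3E and CD8A were highest in heifer 5, CD3G in heifer 4 and CD8B in heifer 1, and heifer 9 was lowest for CD8B (20.55 CPM). Erythroid markers of heifers 9 and 10 were low, 212 and 335 CPM. Heifer 4 was at 230 CPM, however, and the range reached 9779 CPM in heifer 1. Neutrophil markers summed to 1374 CPM in heifer 9 and 2120 CPM in heifer 10, inside the range of 1035 to 2606 CPM. Monocyte markers summed to 1673 CPM in heifer 9 and 2718 CPM in heifer 10, of which LYZ was 1248 and 2205 CPM. Heifers 6 to 9 (1894, 1545, 1928.5 and 1673 CPM) lay below every ET_D7 heifer (2292.5 to 2900 CPM). All 6 tested monocyte genes were lower in ET_D9, with a median of −0.39 log2 units. Of these, 3 had an unadjusted p under 0.05 in edgeR's quasi-likelihood test, and none passed after adjustment. Natural killer markers summed to 141 CPM in heifer 9, the highest of the 10, and to 99.2 CPM in heifer 10. B cell markers lay between 1757 and 2346 CPM and platelet markers between 193 and 662 CPM. The part of composition in the member levels was not tested.

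In the fetal organs the same genes were compared between tissues of the fetus. All 10 were tested across the 26 organ libraries. Heart markers summed to 36622 to 52644 CPM in heart and liver markers to 32018 to 57396 CPM in liver. In ET_D7 livers the heart markers summed to 2006 CPM in fetus 3, 676 CPM in fetus 4 and 378 CPM in fetus 5. They summed to at most 107 CPM in the other 5 livers. The genes of that list were uneven in liver. ACTC1 ranged from 0 to 31997 reads, MYH7 from 0 to 1275 and TNNT2 from 1 to 584. MYL7 reached 192 reads, TNNI3 52 and MYH6 38, and NPPA and NKX2-5 were at 0 in every liver. The gonad libraries held nephron and mesonephros markers at 393 to 473 CPM in sum and fetal testis markers at 9.76 to 20.6 CPM, so they are called gonads by their label only.

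Liver had the highest level of most members. IFI6 averaged 94.4 ± 16.6 CPM in liver (n = 8), 19.4 ± 5.17 CPM in heart (n = 9) and 7.44 ± 1.23 CPM in gonads (n = 9), and the organs did not overlap. IFI44 was at 7.16 ± 3.50 CPM in liver and at means of 0.174 CPM in heart and 0.149 CPM in gonads. RSAD2 averaged 4.09 ± 1.20 CPM in liver, 0.660 ± 0.476 CPM in heart and 0.678 ± 0.153 CPM in gonads. The heart and gonad levels of RSAD2 and IFI44 did not differ beyond their spread, while IFI6 was in the order liver, heart, gonads.

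MX1 was also highest in liver, with 9.01 ± 3.03 CPM, 3.22 ± 0.973 CPM in heart and 2.68 ± 0.752 CPM in gonads, and heart and gonads did not differ beyond their spread. OAS2 averaged 1.67 ± 0.958 CPM in liver, 0.226 CPM in gonads and 0.174 CPM in heart. MX2 was low throughout, with means of 0.659 CPM in liver, 0.307 CPM in gonads and 0.0480 CPM in heart. ISG15 was the exception, with 2.09 ± 0.768 CPM in heart, 1.52 ± 0.843 CPM in liver and 0.379 ± 0.293 CPM in gonads. Heart and liver did not differ in ISG15 beyond their spread.

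The tests of organ against organ called 8 members between heart and liver, where 68.2% of 19635 genes passed, 8 between gonads and liver (73.9%) and 3 between heart and gonads (57.4%). Both were lower than liver for most members. Heart minus liver was −5.28 log2 units for IFI44, −3.65 for MX2, −3.22 for OAS2, −2.60 for RSAD2, −2.28 for IFI6 and −1.49 for MX1. Gonads minus liver was −5.55 for IFI44, −3.67 for IFI6, −2.86 for OAS2, −2.59 for RSAD2, −1.99 for ISG15 and −1.75 for MX1. Between heart and gonads, ISG15 was 2.45 log2 units higher in heart (SE 0.619, adjusted p = 0.00133), IFI6 was 1.38 higher (SE 0.147, adjusted p = 5.62e-09) and MX2 differed by −2.56 (SE 0.910, adjusted p = 0.018), by edgeR's quasi-likelihood test with Benjamini-Hochberg adjustment. The 2 counts against liver are near the share of all genes that passed, and the count of heart against gonads is below it.

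IFIH1 and IFIT2 were also called between liver and the other organs, but their liver counts came in jumps. IFIH1 had 5537 reads in the liver of fetus 5 and 0 or 1 read in the other 7 livers. IFIT2 had 1281 and 900 reads in the livers of fetuses 4 and 5 and 0 or 1 read in the other 6. USP18 ranged from 60 to 198 reads in fetuses 1, 2, 3 and 5 and was at 0 or 1 read in the other 4. Where these genes were at 0 or 1, each liver held the same count for them. It was 1 in fetuses 1, 8 and 10 and 0 in fetuses 2, 3, 4 and 9. Whether these low values are measured reads was not tested. The livers of fetuses 4 and 5 are among the 3 with the higher heart marker sums. In the heart libraries themselves IFIH1 had 7 to 41 reads and IFIT2 had 0 to 14. The part of heart markers in these liver counts was not tested. A jump of this kind, from at most 2 reads to at least 300, was found for 333 genes in liver, 1 in heart, 1 in gonads and 2 in blood.

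The calls for IFIH1 and IFIT2 did not hold under every fit. Without the liver of fetus 5, IFIH1 was 4.85 log2 units higher in heart and 3.47 higher in gonads than in liver. The adjusted p was 1.12e-05 and 0.000423 in edgeR's quasi-likelihood test. With all livers, DESeq2 gave IFIH1 as 3.42 higher in heart (adjusted p = 1.16e-05) and 2.05 higher in gonads (adjusted p = 0.00946) than in liver. With the fetus as a block, which pairs the organs of 1 fetus, IFIH1 was 2.58 higher in heart than in liver (adjusted p = 0.185) and IFIT2 was −1.68 (adjusted p = 0.577), and the members called against liver fell from 8 to 6 for heart and from 8 to 6 for gonads. Against gonads the blocked values were 1.18 for IFIH1 (adjusted p = 0.552) and −2.21 for IFIT2 (adjusted p = 0.468), all by edgeR's quasi-likelihood test.

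**Figure D5:**
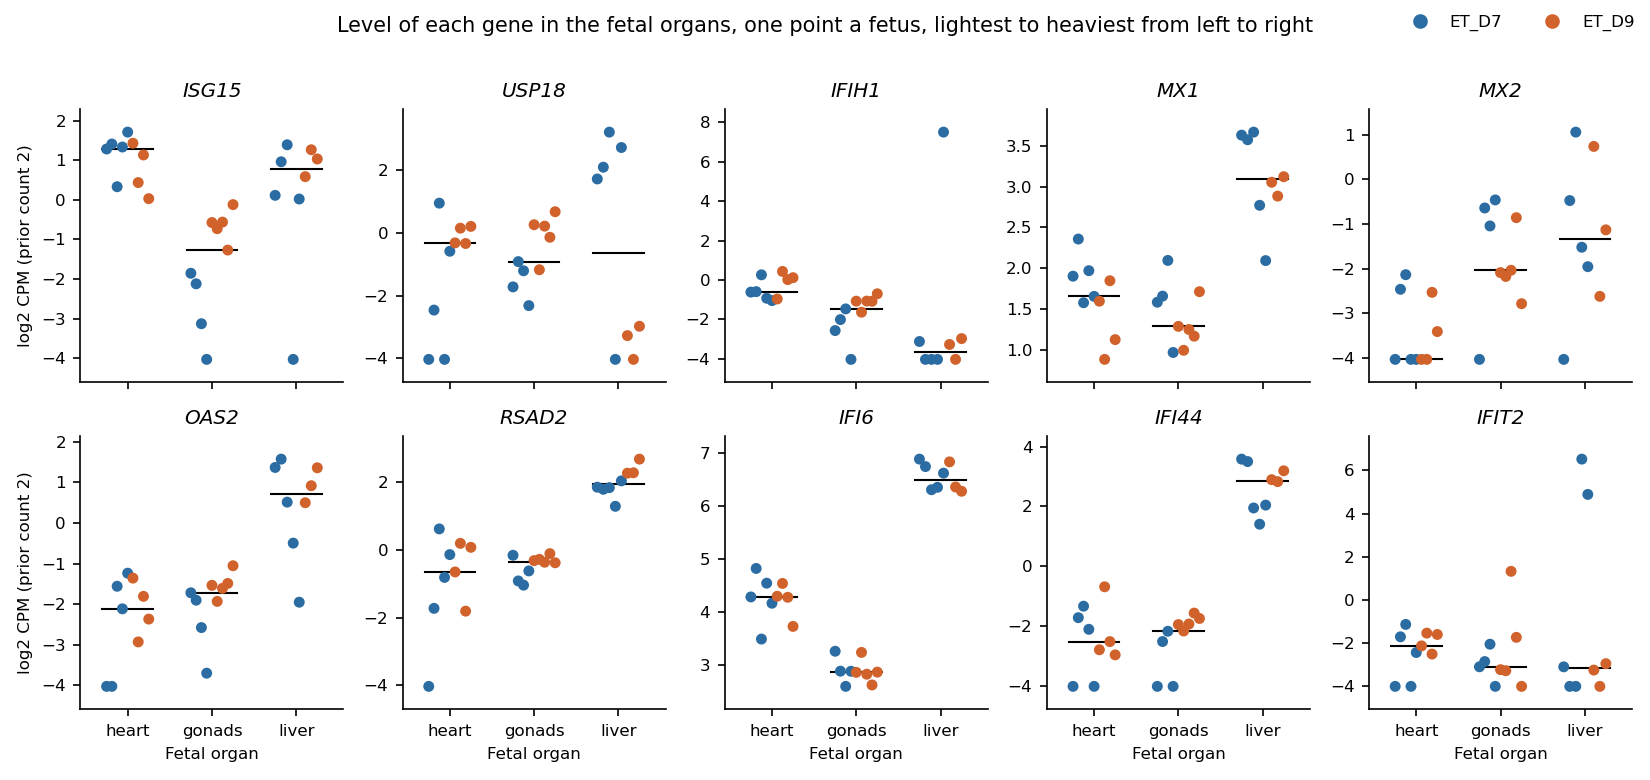
Level of each of the 10 genes in fetal heart, gonads and liver (log2 CPM, prior count 2), 1 point a fetus, ordered from lightest to heaviest within each organ, ET_D7 in blue and ET_D9 in orange, with the median as a black bar. Liver is highest for IFI6, IFI44 and RSAD2, and the liver points of IFIH1, IFIT2 and USP18 lie in separate clumps.

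No member passed between transfer groups in any fetal organ. The numbers tested were 6 members in heart, 8 in gonads and 7 in liver, and all genes called made up 0.0431%, 0.359% and 3.17% of those tested. ISG15 in gonads did not overlap between groups, at 0.215, 0.169, 0.0531 and 0 CPM in ET_D7 and 0.610, 0.542, 0.615, 0.354 and 0.858 CPM in ET_D9. These values rest on 0 to 9 reads in ET_D7 and 18 to 51 reads in ET_D9. All ET_D9 libraries lay above all ET_D7 libraries for 3.48% of the genes tested in gonads. The difference of 2.53 log2 units for ISG15 (SE 0.734) had an adjusted p of 0.116 in edgeR's quasi-likelihood test. In the same test USP18 differed by 1.72 in gonads (adjusted p = 0.0975) and by −6.95 in liver (adjusted p = 0.0570), and MX1 by −0.52 in heart (adjusted p = 0.253).

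Mother and fetus were compared last, by the correlation over pairs. The median r of log2 CPM between a heifer's blood and her fetus was 0.10 over the members tested in heart (n = 9 pairs), 0.25 in gonads (n = 9) and 0.14 in liver (n = 8), against medians near 0 over all genes. Single members went both ways, with −0.67 for IFI6 in heart, −0.59 for IFI6 in liver and 0.66 for RSAD2 in liver. Once each transfer group was centred on its own mean, the gonad median was 0.023.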

How the data were processed

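RNA was sequenced from maternal blood (SMARTer stranded libraries, 10 heifers) and from fetal heart (9), gonads (9) and liver (8; TruSeq stranded mRNA libraries). The authors deposited 1 table of read counts per Entrez gene, made with Trimmomatic, STAR 2.7.0b on ARS-UCD1.3 and featureCounts of Subread 2.0.3, with FastQC 0.11.9 for quality. Strand and multi-mapping options of the counting were not given in the sources used here. The counts are deposited unnormalized, and 31630 of 35092 identifiers matched a RefSeq symbol.

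A gene was tested where 4 or more libraries of the comparison held 10 or more counts, with edgeR 4.0.16 in R 4.3.3 (glmQLFit and glmQLFTest, robust, trimmed mean of M values), with Benjamini-Hochberg adjustment over all genes tested and a threshold of 0.05. Blood was fitted on transfer group, on a natural cubic spline of fetal weight (3 degrees of freedom) and on a line of weight (log2 units per 0.1 g). Organs were fitted with 1 mean an organ, and transfer groups within each organ. Correlations used log2 CPM with a prior count of 2 and are descriptions with no test. DESeq2 1.42.0, size factors by relative log expression, no filter, a covariate for depth class (the libraries form a deeper and a shallower class), left-out libraries and a fetus block were alternatives. The blood fits on transfer group, spline and line, and the comparison of heart against liver, were first tested on simulated data. The transfer group fits within organs and the alternatives were not. Figures were drawn with matplotlib 3.10.9.

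Organ libraries with the same number come from the same fetus, which gives the pairing. Deviations of same-fetus libraries from their organ means correlated at −0.0732 to 0.207. No 2 libraries held identical values. Each animal gave 1 library per tissue, so p-values within blood or within 1 organ measure the spread between animals. The tests of organ against organ without the fetus block treat libraries of the same fetus as independent. The members, the pathway lists and the marker lists were chosen with earlier results of these data known. Besides the members, the text names list genes that passed a blood test, otherwise the 4 genes of each list with the smallest unadjusted p for transfer group and for the line of weight, and the 5 genes most alike. Genes beside a member and genes called by the spline were named after their values were seen. A listed gene that this rule selects is not reported here.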

Additional observations from a re-analysis of the deposited data

Results flagged for a closer look

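Of 70 groups of 4 or 5 libraries examined for a library far from the rest, 5 were marked, and chance marks about 1 in 20. In blood, heifer 3 stood above the other ET_D7 heifers in MX1, at a log2 CPM of 9.156 with the next at 8.521. In ET_D7 livers, fetus 4 was lowest for ISG15 and for USP18, both at −4.028, which is the value of 0 counts, and fetus 5 was highest for IFIH1 at 7.507 (181.8 CPM). In ET_D7 gonads, fetus 1 was lowest for MX2 at −4.028, again 0 counts.

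The transfer group difference of blood minus that of liver passed for 3 of 30 member and organ pairs, in a fit chosen after seeing the data and without a block for heifer and fetus. It was 7.276 log2 units for USP18 (adjusted p = 0.00173), 10.41 for IFIH1 (adjusted p = 0.00798) and 10.11 for IFIT2 (adjusted p = 0.00895), by edgeR's quasi-likelihood test with Benjamini-Hochberg adjustment. These are the 3 members whose liver counts were at 0 or 1 read in 4 or more of the 8 libraries. In that fit 1843 of 20733 genes passed for liver, 196 for heart and 50 for gonads.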

How the results depend on the processing

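Of 270 values of single members under planned and added alternatives, 229 kept direction and side of the threshold. The runs that leave out 1 library are not among the 270. In those runs the spline calls of ISG15, OAS2 and IFI44 were each lost in 7 of 10. With DESeq2 the genes called were 65 (blood transfer group), 487 (spline, 9 members), 123 (line, 2 members, RSAD2 and IFIH1), 2155 (heart), 940 (gonads, 2 members) and 1520 (liver, 1 member). With no filter they were 2 members for the spline, 2 genes for the line, 3 for heart and 138 for gonads. With depth class as a covariate the spline called 0 genes and 0 members, and with transfer group as a covariate the line called 0 genes. Without heifers 9 and 10, added after seeing the data, the spline called 0 genes and 0 members and the line 0 genes, and slopes turned for ISG15 (−0.053), MX1 (−0.12), MX2 (−0.16), OAS2 (−0.40), IFI6 (−0.17), IFI44 (−0.13), USP18 (−0.18) and IFIT2 (−0.063). The median r of 0.89 became 0.56 without that pair and 0.76 by Spearman rho, and the mother and gonad median became 0.023 with group means removed. The cause of these changes was not tested.

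Leaving out 1 library at a time gave 0 to 1 genes for the blood transfer group, 2 to 151 genes and 0 to 6 members for the spline, 0 to 4 genes for the line, 0 to 2723 for heart, 2 to 451 for gonads and 224 to 989 (0 to 1 members) for liver. Blood group differences ranged from −0.042 to 0.72 for IFI44, −0.077 to 0.36 for MX1 and −0.12 to 0.49 for USP18, and the median r from 0.72 to 0.92. Heart against gonads ranged from −0.18 to 0.43 for IFI44, −1.19 to 1.19 for IFIT2, −0.30 to 0.15 for RSAD2 and −0.36 to 0.25 for USP18. IFIH1 ranged from −5.06 to 4.85 for heart against liver and −6.45 to 3.47 for gonads against liver.

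With the replicate block on fetus, heart against gonads was −0.68 for USP18 and 0.53 for IFIT2, and IFIH1 was 2.58 for heart and 1.18 for gonads against liver. The block ended the calls of IFIH1 and IFIT2 against liver and changed no other call of a member. Heart against gonads was −0.0061 for USP18 under relative log expression and −0.019 under DESeq2, which gave 1.12 for IFIT2, and IFIH1 against liver was 3.42 for heart and 2.05 for gonads under DESeq2. A negative binomial additive model was not run. With 5 heifers a group and weights that do not overlap between groups, the number of animals limits the blood comparison. In the organs ISG15, OAS2, MX2 and USP18 rest on few reads. Outside liver the same holds for IFI44, IFIH1, RSAD2 and IFIT2, apart from 146 reads of IFIT2 in the gonads of fetus 8.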

Other observations

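LOC100139670, 2 places from IFIT2 in the RefSeq order, had an r of 0.97 with it over the 10 blood libraries, and TMPRSS2, beside MX1, had an r of 0.68 with MX1. FAM76A beside IFI6 was at 0.72 and RNF144A beside RSAD2 at 0.61. These genes were named after their values were seen. Among monocyte markers, CD163 differed by −0.76 log2 units in ET_D9 relative to ET_D7 blood (adjusted p = 0.580, edgeR's quasi-likelihood test with Benjamini-Hochberg adjustment), and no blood marker gene passed that test. MYH7, a myosin of heart and slow muscle, was at 3356 CPM in heifer 2, 1097 CPM in heifer 5 and at most 17.0 CPM in the other blood libraries, with a difference of −11.31 log2 units between transfer groups (adjusted p = 0.580 in the same test), and it was named after its values were seen.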
